A study of Mus musculus with 14 samples.

Results

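Kidneys that all carried the same inducible, catalytically inactive TERT transgene differed widely in how much Tert they expressed, and the 10 libraries from these mice were therefore divided by their own Tert level. Of the 14 libraries in the series, 10 came from i-TERTci mice; 6 of these had a deposited Tert value above 1100 and 4 had a value below it. The 2 classes were chosen by the measured value and not by a label, so they are called the libraries with higher and with lower Tert and are not groups of the study. The question was which other genes differed with Tert among mice of a single genotype.

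The i-TERTci mice were heterozygous for each of 2 transgenes, actin-rtTA+ and TetOp-TERTci+, so that doxycycline in the drinking water switched on TERTci throughout the body, not in a chosen kidney cell type. From about day 15, when protein in the urine exceeded 10 mg/mL, they were injected daily, per the labels intraperitoneally, with the vehicle DMSO (5 mice) or with GSK2830371 (5 mice), which blocks WIP1, the phosphatase made from Ppm1d. The 4 control mice carried actin-rtTA+ alone and received doxycycline for 30 days; no injection is recorded for them. RNA was extracted from whole kidney, and each library is labelled as a replicate of its group. The p-values between the classes measure the spread between libraries within a class, which mixes both injections unless treatment is a term. The labels give neither age nor strain background.

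TERT is the reverse transcriptase subunit of telomerase, the enzyme that adds repeats to chromosome ends; the TERTci form has no catalytic activity. Induced TERT has been linked in mouse kidney to collapsing disease of the glomerulus, in which podocytes, the cells that hold back protein from the urine, lose their specialised state and re-enter the cell cycle. Kidney damage of this kind also raises stress genes of the tubules such as Lcn2 and the cell cycle inhibitor gene Cdkn1a, a target of p53.

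The classes differed in more than Tert. The 6 libraries with higher Tert comprised 4 from DMSO-injected and 2 from GSK2830371-injected mice, and the 4 with lower Tert comprised 1 and 3. By Xist reads, 2 of the 6 and 3 of the 4 were female, as were all 4 controls. Mice with higher Tert had spent 28 to 49 days on doxycycline (median 29), and those with lower Tert 31 to 49 days (median 40). The i-TERTci libraries held 47194888 to 49422279 reads in genes and the controls 48469086 to 64581825. Reads from the mitochondrial genome made up 4.95% to 9.52% of the libraries with higher Tert, 5.07% to 8.78% of those with lower Tert and 14.4% to 24.2% of the controls. Markers of the labelled tissue were present in the controls: the proximal tubule phosphate transporter gene Slc34a1 stood at 207995 to 482016 normalised reads, and all 25 podocyte genes looked for were measured. Between the 10 i-TERTci and the 4 control libraries, 10048 of 18809 genes (53.4%) passed limma's test with Benjamini-Hochberg adjustment, so the kidneys of both classes were far from control.

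Tert (ENSMUSG00000021611, chr13:73626911-73649843 on the plus strand of GRCm38) was higher in each of the 10 i-TERTci libraries than in any control. In normalised reads, that is, reads divided by a size factor for each library, the controls stood at 117, 183, 146 and 139. Among DMSO-injected mice the values were 1569, 1282, 2732, 1515 and 574 for replicates 1 to 5. Among GSK2830371-injected mice they were 355, 231, 906, 2546 and 1448. The libraries thus formed a spread of levels, with the lowest 2 close above the controls and no wide gap at the dividing value. The class means were 1849 ± 623 (SD, n = 6) and 517 ± 296 (SD, n = 4), against 146 ± 27.5 (SD, n = 4) in controls, 12.6 and 3.53 times the control mean. On the authors' deposited scale the libraries nearest to the dividing value were GSK2830371 replicate 3 at 903 and DMSO replicate 2 at 1259. Since Tert chose the classes, its levels are a description and were not tested. Reads were summed per gene, so those from the transgene and from the mouse's own Tert cannot be told apart, and in whole kidney fewer expressing cells and less RNA per cell cannot be told apart either.

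**Figure D1:**
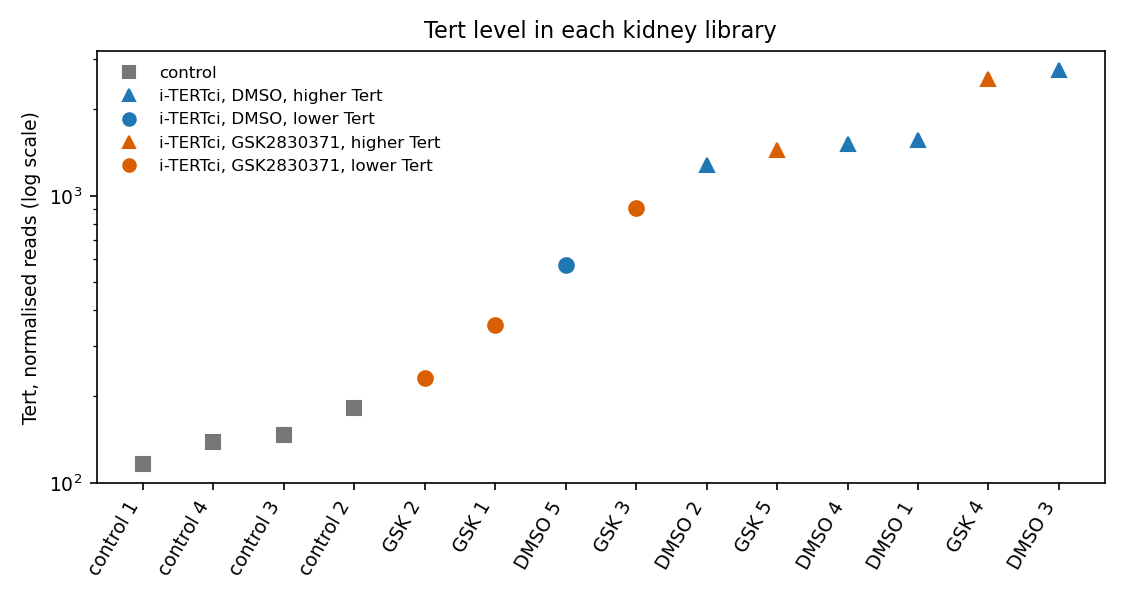
Tert level in each library, in normalised reads on a log scale, ordered by level within controls and within i-TERTci; each point is 1 library, colours give the group (GSK stands for GSK2830371) and triangles the higher class. The 10 i-TERTci libraries run from 231 to 2732 without a wide gap, and the controls from 117 to 183.

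Apart from Tert, 1 of 18220 genes tested (0.00549%) differed between the classes in limma's test with Benjamini-Hochberg adjustment, the pseudogene Gm12663. At an unadjusted p under 0.05 there were 404 genes (2.22%), 244 of them with higher values in the libraries with higher Tert (1.34%) and 160 with lower values (0.878%). The 6 and 4 libraries did not overlap for 81 genes (0.445%), 51 with all higher values (0.28%) and 30 with all lower values (0.165%). This was a smaller share than the proportion of 0.00952 that random assignment of the libraries to the classes would give. The spread of differences was centred on 0, with 9095 genes above it (49.9%) and with 95% of genes between -0.73 and 0.79 on the log2 scale. For 11791 genes (64.7%) the 95% interval of the difference lay wholly within 1 log2 unit of 0 on either side, and for the other genes the interval reached past that size. Only 404 of the 18220 p-values fell in the lowest of 20 equal bins, which held 911 genes on average. A model with separate class differences for the DMSO and GSK2830371 mice called 0 genes in limma for a dependence of the class difference on the injection (1664 at an unadjusted p under 0.05, 9.13%). The lower class among DMSO mice was 1 library, DMSO replicate 5, which is assumed there to vary like the others.

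**Figure D2:**
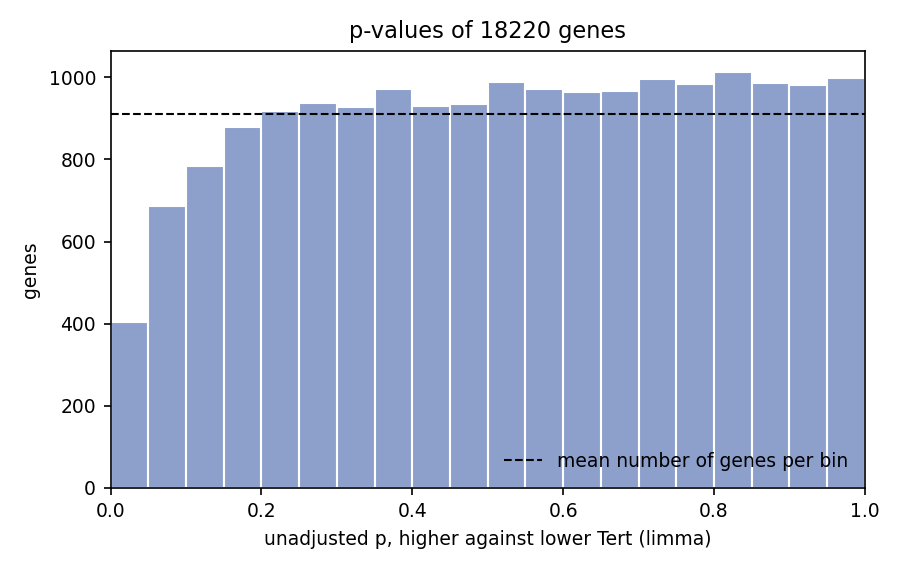
Number of genes (vertical axis) by unadjusted p of limma's test between the libraries with higher and lower Tert (horizontal axis, 20 equal bins); the dashed line is the mean of 911 genes per bin. The lowest bin holds 404 genes, fewer than any other bin.

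Gm12663 (ENSMUSG00000101316, chr11:16635109-16636066 on the minus strand of GRCm38) is annotated as a processed pseudogene, a copy of a messenger RNA written back into the genome. Its sequence matched the coding sequence of Ublcp1, which encodes a phosphatase of the proteasome: of 958 aligned columns 952 were identical (99.4%), with 5 substitutions, 1 gap column and a longest identical run of 348 bases. The substitutions are A123G, T431G, C481T, A584C and A933G, with the Ublcp1 base first, positions counted from 1 at the 5′ end of Gm12663, and the Gm12663 base last. The stretch with 2 of these, bases 426 to 485 of Gm12663 (chr11:16635582-16635641, minus strand), is shown because such bases help to tell reads of the 2 genes apart. Capitals mark the differing bases. Both sequences are from the GENCODE M21 transcripts on GRCm38, written 5′ to 3′.
Gm12663: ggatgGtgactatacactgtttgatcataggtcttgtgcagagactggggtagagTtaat
Ublcp1: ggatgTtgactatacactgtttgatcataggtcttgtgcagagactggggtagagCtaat

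In the libraries with higher Tert, Gm12663 stood at 51.0 to 102 normalised reads (median 80.2). The 4 libraries with lower Tert held 12.4 (DMSO replicate 5), 6.76, 9.68 and 11.8 (GSK2830371 replicates 1 to 3). The controls held 20.9, 22.3, 53.2 and 1.18, so they spanned the gap between the classes and differed among themselves more than either class did. The log2 difference, higher minus lower, was 2.79 (SE 0.30, adjusted p = 0.0123 in limma with Benjamini-Hochberg adjustment), and all 6 libraries lay above all 4. It was 2.53 among the DMSO mice and 2.83 among the GSK2830371 mice. Between the 10 i-TERTci libraries as a whole and the 4 controls no difference in Gm12663 was called (log2 difference 1.16, adjusted p = 0.268 in limma). That value averages a higher class mean of 3.14 times the control mean and a lower class mean of 0.417 times it. Ublcp1 itself ran from 974 to 1519 normalised reads with higher Tert and from 1383 to 1729 with lower Tert (log2 difference -0.30, SE 0.15, adjusted p = 0.999 in limma), and the classes overlapped. How the authors' counting assigned reads shared by the near-identical copies is not known, so the Gm12663 values are uncertain. The call was lost in limma with treatment (adjusted p = 0.122), days (adjusted p = 0.0567) or the replicate block (adjusted p = 0.578) as a term, with all 14 libraries (adjusted p = 0.999), within DMSO (adjusted p = 0.866), within GSK2830371 (adjusted p = 0.964) and with log2 Tert itself as a continuous term (adjusted p = 0.999). It was also lost in each of 7 fits without a library: DMSO replicate 1 (adjusted p = 0.0515), 2 (0.0616) or 4 (0.0535), and GSK2830371 replicate 1 (0.0704), 2 (0.0841), 3 (0.0544) or 4 (0.0629). The log2 difference itself was 2.71 with treatment, 2.86 with days and 2.74 with the replicate block as a term, and 2.63 to 2.90 with 1 library left out.

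The next 12 genes were, in each direction, the 6 with the smallest unadjusted p among genes without overlap between the classes. Predicted genes and genes below a mean of 50 normalised reads in both classes were left out. All 12 had an adjusted p of 0.999 in limma. Their values follow as a description. Tnfsf9, which encodes the ligand of the T cell receptor 4-1BB, stood at 46.8 to 85.8 normalised reads with higher Tert (median 52.9) and at 19.9, 14.7, 21.3 and 25.6 with lower Tert. The controls, at 36.3, 39.0, 67.2 and 60.03, all lay above the lower class, but 36.3 and 39.0 were below the whole higher class. The log2 difference was 1.47 (SE 0.29, 95% interval 0.84 to 2.09), 1.48 among DMSO and 1.44 among GSK2830371 mice, and DESeq2, unlike limma and edgeR, called it (adjusted p = 0.0103).

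Map3k14 encodes NIK, the kinase that starts the noncanonical NF-kB pathway. It ran from 646 to 1598 normalised reads with higher Tert (median 861) and stood at 619, 602, 500 and 518 with lower Tert, where the controls ran from 603 to 763. Its log2 difference was 0.76 (SE 0.23), or 0.57 with treatment as a term. The G protein-coupled receptor gene Gpr35 ran from 92.7 to 298 with higher Tert, against 84.5, 41.7, 57.1 and 68.0 with lower Tert, so DMSO replicate 5 lay close below the higher class. Differences of 0.83 for Ttpal, 0.54 for the ubiquitin ligase gene Rnf41 and 0.80 for the cation channel gene Trpv2 complete those with higher values.

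Pttg1 encodes securin, which keeps sister chromatids from being separated before anaphase. It stood at 219 to 1295 normalised reads with higher Tert (median 777) and at 1386, 1968, 1712 and 2042 with lower Tert, with controls at 1128 to 1687. The log2 difference was -1.35 (SE 0.41), and among the higher class DMSO replicates 1 and 3, at 1100 and 1295, lay within the control range or close to it. Ebf1, a transcription factor gene of B cells and stromal cells, ran from 210 to 465 with higher Tert and stood at 504, 565, 597 and 475 with lower Tert (log2 difference -0.69, SE 0.23). The antiproliferative gene Tob1 (-0.59), the transcription factor gene Sox6 (-0.41) and Fam243 (-1.38) also had lower values.

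Egr2, an immediate early transcription factor gene, had a larger log2 difference than any of these 12 genes (2.27, SE 0.56, adjusted p = 0.999 in limma), but its libraries overlapped. It ran from 79.3 to 469 normalised reads with higher Tert and stood at 97.7, 18.0, 45.5 and 18.7 with lower Tert, against 14.1 to 34.3 in controls. By position, 14 of the 80 non-overlapping genes that matched the annotation lay on chromosome 11, among them Gm12663, Pttg1, Ebf1, Trpv2, Tob1 and Map3k14. This was 0.997% of the 1404 genes tested there, against 0.445% over all genes. Under random assignment of the libraries to the classes, a proportion of 0.00952 of genes would be without overlap. The chromosome 11 share was thus close to that of random assignment, and the share over all genes was below it. The 14 genes ran from base 16635109 to base 116529215 along the chromosome, 8 with higher and 6 with lower values. The share of chromosome 11 genes at an unadjusted p under 0.05 (2.35%) was close to that of all genes (2.22%). This count was made after the positions were seen.

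**Figure D3:**
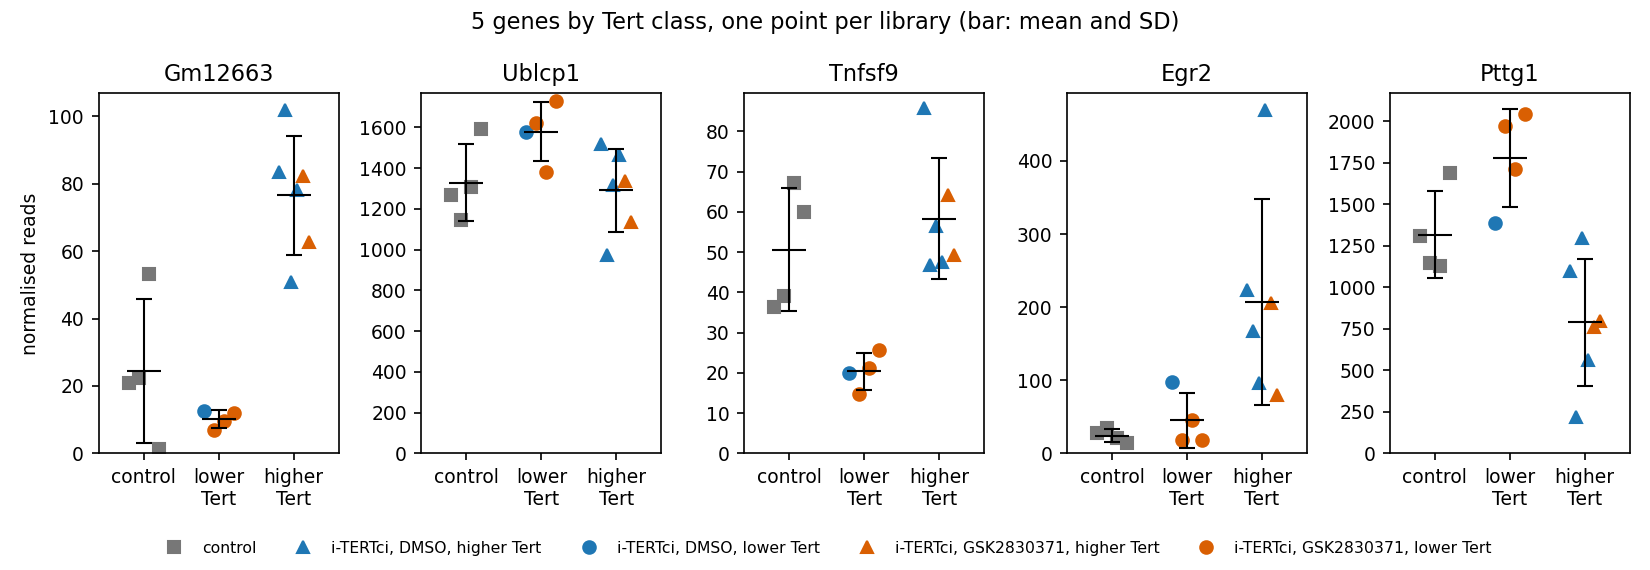
Normalised reads (vertical axes from 0) of Gm12663, Ublcp1, Tnfsf9, Egr2 and Pttg1 in controls, libraries with lower Tert and libraries with higher Tert; points are libraries, bars the mean and SD. Gm12663, Tnfsf9 and Pttg1 do not overlap between the 2 Tert classes, while Ublcp1 and Egr2 do, and only Gm12663 passed limma's test.

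None of the genes on any of the 42 lists, which hold 806 symbols, passed limma's test between the classes, and 29 lists had no gene even at an unadjusted p under 0.05. The other genes of telomerase and of shelterin, the complex that caps telomeres, had a median log2 difference of 0.10 over 19 genes, 13 of them above 0. Ruvbl1, an ATPase needed to assemble telomerase, was the one with the smallest p (log2 difference 0.40, SE 0.19, 733 to 1335 normalised reads against 602 to 767). Around Tert on chromosome 13, 8 neighbouring genes were tested and their differences ran from -0.63 to 0.65 with a median of -0.05. The amino acid transporter gene Slc6a19, the neighbour with the smallest p, stood at 5207 to 10026 normalised reads with higher Tert and 8057 to 14746 with lower Tert (log2 difference -0.63, SE 0.24). Slc6a18, Slc12a7, Nkd2, Clptm1l, Lpcat1, Trip13 and Brd9 had overlapping classes. Since an actin promoter drives rtTA in these mice, actin and related cytoskeletal genes were also examined: 13 of 15 had differences above 0, with a median of 0.24. Actb ran from 24778 to 77656 normalised reads with higher Tert and from 19174 to 26353 with lower Tert (log2 difference 0.56, SE 0.30), and DMSO replicate 4 alone held the 77656, with the next highest at 31638.

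Ppm1d, whose product GSK2830371 inhibits, stood at 512 to 621 normalised reads with higher Tert (median 579) and at 529, 969, 777 and 560 with lower Tert, against 871 to 932 in controls. Only GSK2830371 replicate 1 reached above the control range. The log2 difference between the classes was -0.26 (SE 0.19, 95% interval -0.67 to 0.14), or -0.10 without GSK2830371 replicate 1. Over the 25 genes of the Ppm1d and DNA damage list the median was -0.02, with 12 above 0. Map2k6, a kinase gene upstream of p38, had its smallest p (log2 difference -0.71, SE 0.33).

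The p53 targets had a median log2 difference of 0.09 over 34 genes, 22 above 0, and 3 of them had an unadjusted p under 0.05 (2.22% of all genes did), among them Gdf15 with higher and Sesn1 with lower values. Gdf15, a stress cytokine gene, ran from 473 to 6100 normalised reads with higher Tert and stood at 476, 108, 825 and 209 with lower Tert (log2 difference 1.89, SE 0.72). Cdkn1a ran from 4636 to 11191 normalised reads with higher Tert and stood at 1756, 19138, 12578 and 3717 with lower Tert, against 586 to 1010 in controls. The 2 libraries with the least Tert thus held the most Cdkn1a, and the other 2 of the lower class the least of the 10. Its log2 difference between the classes was 0.36 (SE 0.57, 95% interval -0.87 to 1.60). The difference was 2.34 among the DMSO mice, where the lower class is DMSO replicate 5 alone, and -0.52 among the GSK2830371 mice. It was 0.62 with treatment as a term and -0.18 with sex as a term.

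Cell cycle genes had a median log2 difference of 0.26, with 27 of 38 above 0 and none at an unadjusted p under 0.05. Mki67, a marker of cycling cells, ran from 146 to 871 normalised reads with higher Tert and stood at 679, 393, 165 and 87.7 with lower Tert (log2 difference 0.49, SE 0.58). Its highest value belonged to GSK2830371 replicate 4, the library with the second highest Tert. Pcna, the sliding clamp gene of DNA replication, ran from 1732 to 2643 against 1569 to 2248, above the control range of 696 to 948 in each of the 10 (log2 difference between classes 0.28, SE 0.16).

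Podocyte genes had a median log2 difference of -0.10, 7 of 25 above 0, and none at an unadjusted p under 0.05. Nphs1, which encodes nephrin of the slit diaphragm, ran from 1078 to 4850 normalised reads with higher Tert and stood at 2432, 2468, 923 and 4082 with lower Tert, against 1560 to 2038 in controls. Its log2 difference was -0.07 (95% interval -1.08 to 0.93), so each class held libraries above and below the controls. Thsd7a, a podocyte foot process gene, ran from 970 to 1435 against 1211 to 1763 (log2 difference -0.28, SE 0.16). The parietal epithelial list, of the cells lining Bowman's capsule, had a median of 0.04 over 12 genes. In the Wnt pathway 8 of 28 genes lay above 0 (median -0.13), and 4 had an unadjusted p under 0.05, as did 2.22% of all genes: Myc and Wnt7b with higher, Wnt11 and Sfrp2 with lower values. Wnt11, a ligand gene, ran from 12.7 to 32.4 normalised reads with higher Tert and stood at 29.0, 48.5, 58.1 and 34.5 with lower Tert, against 98.3 to 247 in controls (log2 difference -1.04, SE 0.35). In the Notch pathway the median was 0.04 over 14 genes, and the ligand gene Dll4 had the smallest p (log2 difference 0.85, SE 0.33). For Dll4 the difference was 0.15 within DMSO and 1.24 within GSK2830371.

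Tubular genes overlapped between the classes in the same way. Slc34a1 ran from 31519 to 142435 normalised reads with higher Tert and stood at 134319, 111371, 28556 and 94011 with lower Tert, all below the lowest control (log2 difference -0.07, 95% interval -1.15 to 1.01). The proximal tubule list had a median of -0.06 over 30 genes, of which the amino acid transporter gene Slc7a8 alone had an unadjusted p under 0.05 (log2 difference -0.58, SE 0.26). Injured tubule genes had a median of 0.24 over 24 genes. Lcn2, which encodes the urinary injury marker NGAL, ran from 10341 to 90727 with higher Tert and stood at 18228, 50654, 92904 and 37182 with lower Tert, against 131 to 734 in controls (log2 difference between classes -0.22, 95% interval -1.58 to 1.14). Havcr1, the gene of the injury marker KIM-1, went the other way from controls, which stood at 14048 to 23147. It ran from 713 to 10306 with higher and from 1106 to 7848 with lower Tert (log2 difference between classes 0.21, SE 0.80, and -0.30 among the GSK2830371 mice). Among acid-base regulating intercalated cells 11 of 12 genes lay below 0 (median -0.57), none at an unadjusted p under 0.05. Atp6v0d2, a proton pump subunit gene, ran from 370 to 1573 against 914 to 1892 normalised reads (log2 difference -0.72, SE 0.36). Its difference was -0.41 with treatment as a term, -0.23 within DMSO and -0.53 within GSK2830371. The lists for principal cells (-0.07), the loop of Henle (-0.10) and the distal and connecting tubules (-0.23) had medians nearer to 0.

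Inflammation and NF-kB genes had the highest median of the lists that do not concern sex, 0.75 over 27 genes, 24 of them above 0. At an unadjusted p under 0.05 there were 3 (Nfkb1, Nfkb2 and Il1rn, all with higher values), where the share over all genes in that direction was 1.34%. Nfkb2, the precursor of the noncanonical subunit that Map3k14 activates, ran from 1402 to 2962 normalised reads with higher Tert and stood at 1438, 1385, 1426 and 1027 with lower Tert, against 895 to 1127 in controls (log2 difference 0.58, SE 0.19, adjusted p = 0.999 in limma). Of the higher class, only GSK2830371 replicate 5, at 1402, lay within the range of the lower class. The list median was taken without a treatment term, although the classes differed in treatment. With that term the difference was 0.42 for Nfkb2 (0.60 within DMSO, 0.30 within GSK2830371). For Tnf, the leading gene of the list, it was 0.91 without the term and 0.43 with it (-0.01 within DMSO, 0.73 within GSK2830371). Immune cell lists had medians below 0: neutrophil genes had a median of -0.21 over 16, macrophage and dendritic cell genes -0.06 over 27, T and natural killer cell genes -0.25 over 16, and B and plasma cell genes -0.59 over 14. S100a8, a neutrophil protein gene, ran from 84.0 to 8848 normalised reads with higher Tert and stood at 285, 5274, 167 and 3776 with lower Tert, against 0.00 to 21.1 in controls (log2 difference between classes -0.02, 95% interval -3.18 to 3.13). The sums over the 16 neutrophil genes ran from 10982 to 109552 with higher Tert and from 19992 to 94057 with lower Tert. Whether cell makeup had a part in the NF-kB values was not tested.

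Among other lists, immediate early and heat shock genes had a median of 0.24 over 21 genes, with Egr2, Egr3 and Fosl1 at an unadjusted p under 0.05, which 2.22% of all genes reached. The senescence and secretory list had a median of 0.25 over 18, with Gdf15, Mmp12 and Plaur among those at that level. Of the glycolysis and hypoxia genes (median 0.18 over 23) Hk2 and Slc16a3, which encodes a lactate transporter, had higher values at that level (Slc16a3 log2 difference 1.15, SE 0.38). Extracellular matrix genes (-0.07 over 36) included the basement membrane laminin gene Lamb2, at 6099 to 9739 against 8193 to 13150 normalised reads (log2 difference -0.43, SE 0.18). The Lamb2 difference was -0.045 within DMSO and -0.49 within GSK2830371. The medians were between -0.10 and 0.17 for the interferon, complement, TGF-beta, endoplasmic reticulum stress, oxidative stress, fatty acid oxidation, oxidative phosphorylation, mitochondrial genome, cholesterol and endothelial lists, and -0.18 for mesangial, mural and fibroblast genes. Of tissues that a kidney sample could carry with it, all 9 urothelial genes lay above 0 (median 0.66), with sums of 1573 to 10970 against 1149 to 4904 normalised reads. Krt5 among them ran from 37.0 to 215 against 7.89 to 59.6 (log2 difference 1.52, SE 0.60), or 0.48 within DMSO, 2.15 within GSK2830371 and 0.89 without GSK2830371 replicate 3. The adrenal and adipocyte list had a median of 0.26 over 7 genes and the erythroid list -0.44 over 6.

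Sex was not balanced between the classes, with 2 females of 6 against 3 of 4, and none of the sex-biased genes passed the test. All 10 male-biased kidney genes lay above 0 (median 1.28) and all 6 female-biased genes below it (median -0.92), among them the transporter gene Slc7a13 (log2 difference 3.51, SE 2.19) and Cyp4a14 (-1.01, SE 0.57). With sex as a term these differences were 0.60 and -0.66, and with 1 library left out they ran from 2.26 (without DMSO replicate 4) to 5.12 (without GSK2830371 replicate 1) and from -1.26 to -0.57 (without DMSO replicate 4). With that term limma again called 1 gene, with 700 at an unadjusted p under 0.05.

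**Figure D4:**
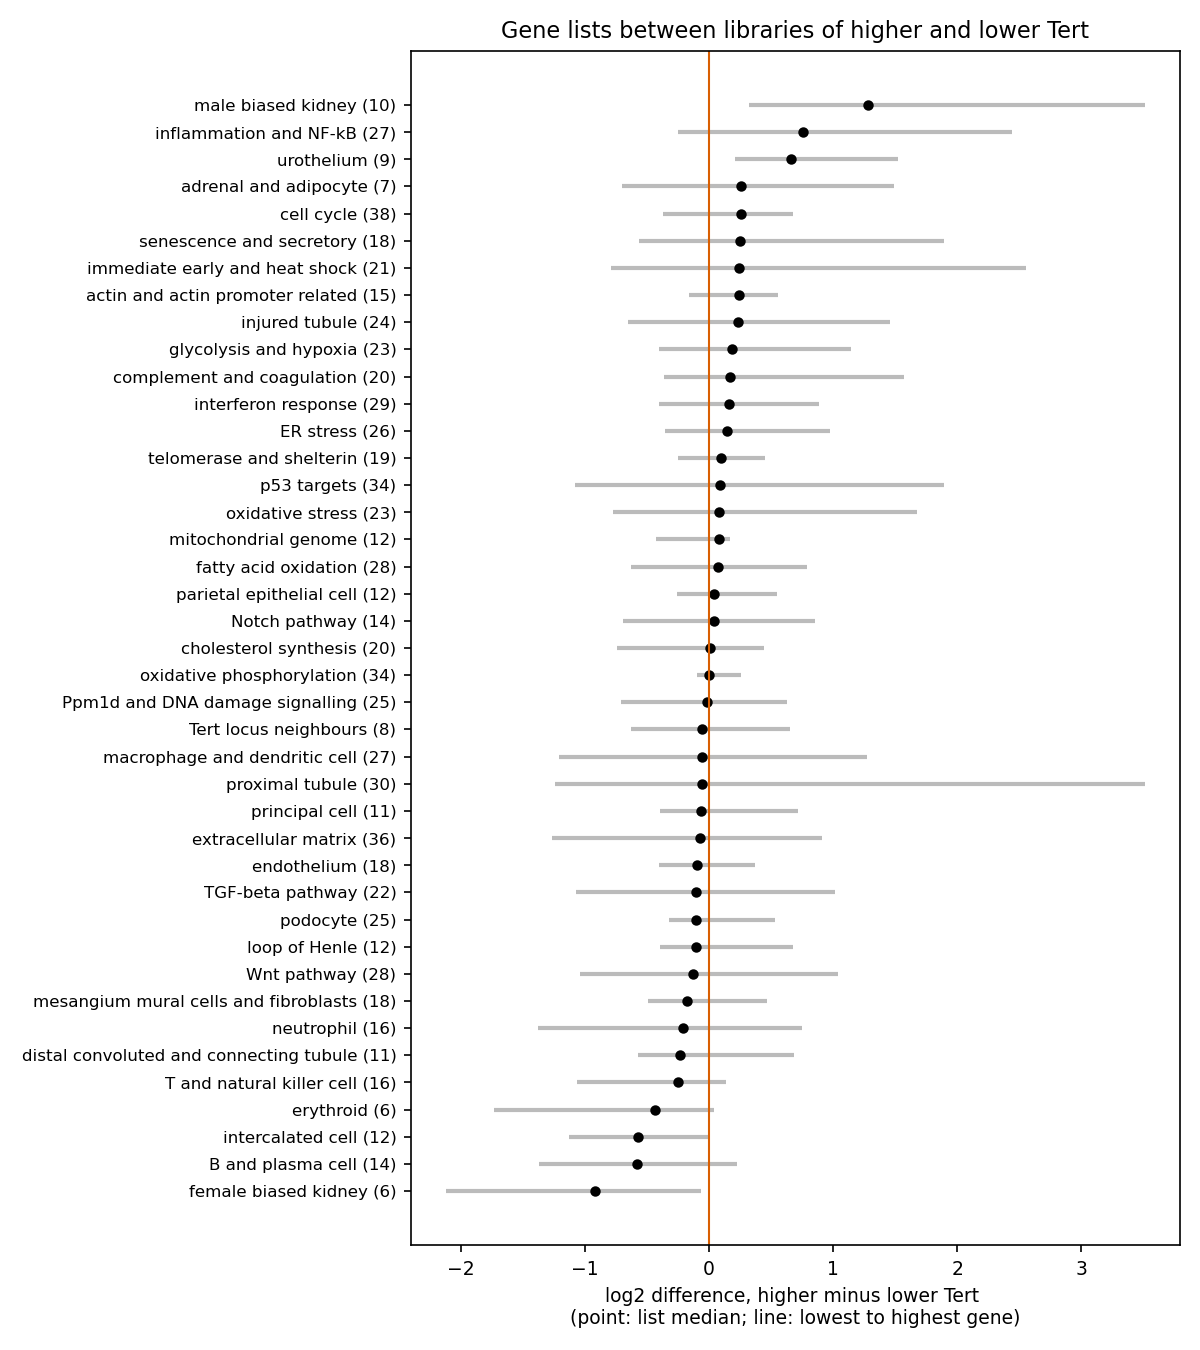
Log2 difference, higher minus lower Tert (horizontal axis), for the gene lists, with the number of genes tested in brackets (the sex-linked list is left out); points are list medians and lines run from the lowest to the highest gene. Most medians lie near 0, male-biased genes (1.28) and inflammation and NF-kB genes (0.75) lie highest, and female-biased genes (-0.92) lowest.

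The rank of each gene along the 10 libraries was then compared with that of Tert. No gene passed after Benjamini-Hochberg adjustment of the permutation p-values over 18220 genes, all adjusted p being 1; 706 genes (3.87%) had an unadjusted permutation p under 0.05, of which 350 were positive (1.92%) and 356 negative (1.95%). Spearman's rho ran from -0.95 to 0.93. Most like Tert, at a mean of at least 50 normalised reads and with predicted genes left out, were Slc4a1ap (0.93), the interferon regulatory factor gene Irf2 (0.93), Tnfsf9 (0.90), the ubiquitin ligase gene Rnf186 (0.90), the importin gene Kpna4 (0.89) and Tnn, which encodes a tenascin (0.88). Running most against it were the retinoblastoma gene Rb1 (-0.89), the lipase gene Daglb (-0.89), Zbtb7c (-0.88), Fkbp15 (-0.87), Zc3h7b (-0.87) and Slc7a4 (-0.85).

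For Tnn, Pearson's r on the log2 scale was 0.91 (permutation p = 0.00017, adjusted p = 0.995 over all genes) and remained 0.81 without GSK2830371 replicates 1 and 2, the 2 libraries farthest from the median of Tert. Tnn stood at 32.1 to 190 normalised reads with higher Tert and at 34.0, 27.1, 12.6 and 73.0 with lower Tert, all far below the controls at 772 to 879. Rb1 had r = -0.87 (permutation p = 0.00074, adjusted p = 0.995), or -0.69 without those libraries, over a narrow range of 1565 to 2446 normalised reads. For Irf2, r was 0.64 (permutation p = 0.0367, adjusted p = 0.995) and 0.92 without them, GSK2830371 replicate 1 standing apart at 522 where the other 9 ran from 922 to 1206. These 12 genes were picked from all genes for their rank order, so their coefficients describe the 10 libraries.

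A disease score asked whether the kidneys with more Tert were farther from control. It is the mean change from the control mean, on the log2 scale and signed by direction, over the genes that differed between the 10 i-TERTci and the 4 control libraries, Tert left out. These genes were picked and signed with the same libraries, so a gap between i-TERTci and controls is built in. The higher class, with more libraries, weighed more in that choice. All 4 controls were female with no recorded injection, so sex and injection cannot be told apart from disease in the score. The higher class scored 1.543, 1.353, 1.504, 1.453 (DMSO replicates 1 to 4), 1.14 and 1.38 (GSK2830371 replicates 4 and 5). The lower class scored 1.17 (DMSO replicate 5), 1.53, 1.56 and 1.20 (GSK2830371 replicates 1 to 3), and the controls ran from -0.12 to 0.21. The highest score belonged to GSK2830371 replicate 2, which had the least Tert of the 10, and the lowest to GSK2830371 replicate 4, which had the second most. The means were 1.40 ± 0.15 (SD, n = 6) and 1.37 ± 0.21 (SD, n = 4), a difference of 0.03 (exact permutation test, two-sided, p = 0.781, adjusted p = 0.957 over 5 library measures, the smallest possible p being 0.00952). Spearman's rho of the score with Tert was -0.19 (permutation p = 0.608, adjusted p = 0.759) and Pearson's r -0.24 (permutation p = 0.493, adjusted p = 0.822), with r = 0.41 without the 2 libraries farthest from the median of Tert, so the sign of r rested on those libraries.

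Of the genes higher in i-TERTci than in control kidneys, 5232 were tested between the classes and limma called 0 (83 with higher and 18 with lower values at an unadjusted p under 0.05, where 1.34% and 0.878% of all genes stood), with a median log2 difference of 0.02 and 54.2% above 0, against 49.9% of all genes. Of the genes lower in i-TERTci kidneys, limma called 0 of 4408 (33 with higher and 56 with lower values at an unadjusted p under 0.05), a median of -0.02 and 45.7% above 0. Both sets were picked with these same i-TERTci libraries, more of them of the higher class, so the shares are not independent of that choice. Days on doxycycline, reads in genes, the mitochondrial share and the share of the 10 most abundant genes had an adjusted p of 0.957 each in the exact permutation test, which does not show that the classes were alike.

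**Figure D5:**
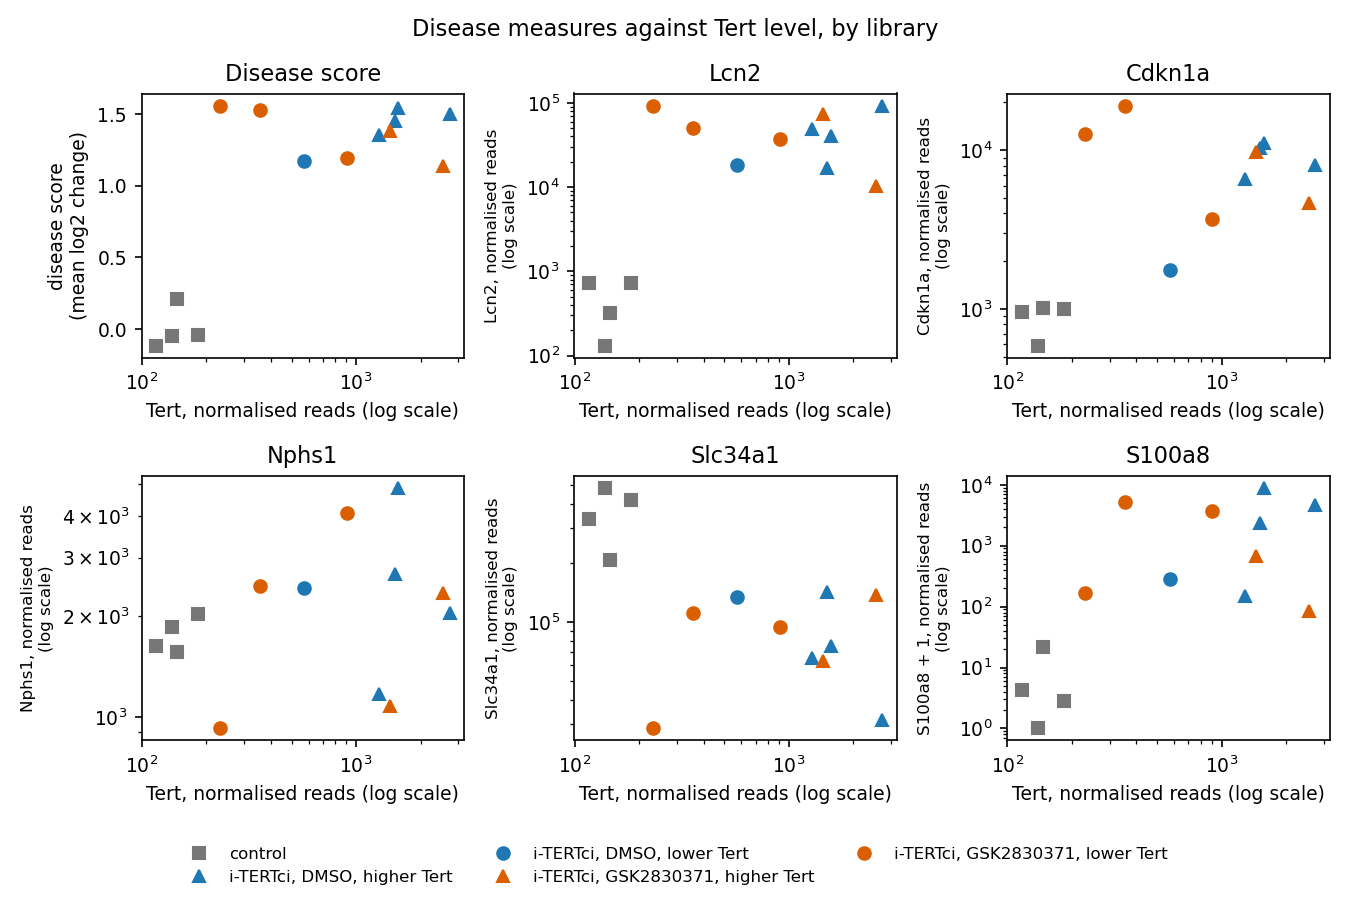
Disease score and normalised reads of Lcn2, Cdkn1a, Nphs1, Slc34a1 and S100a8 (vertical axes, log scale for the genes) against Tert (horizontal axis, log scale); each point is 1 library, with controls as squares. All 10 i-TERTci libraries score 1.14 or above, a gap from the controls that the choice of genes builds in. The library with the least Tert among the 10 has the highest score.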

How the data were processed

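Whole mouse kidney RNA was sequenced in 14 libraries. Per the submitters' processing notes, FastQC, Trimmomatic, STAR and DESeq2 were used with the mm10 build; the labels name neither the counter nor whether strand was used. The authors deposited 2 tables of 9 libraries that share the 4 controls; the authors deposited signal values, and from the values themselves each is a whole read count divided by 1 size factor per library. Multiplied back, 100% of values were whole within 0.001. The reads of the controls agreed in both tables (0 mismatches). All 14 libraries were then rescaled together over the 23682 genes found in both tables, by median-of-ratios size factors. The 539 and 482 genes found in 1 table alone were left out.

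The 10 i-TERTci libraries were compared on log2(normalised reads + 1) with limma 3.58.1 (trend and robust) in R 4.3.3, after edgeR's filterByExpr, with Benjamini-Hochberg adjustment over all genes at a threshold of 0.05. Adjusted p-values without a named tool come from this test. Fold changes of low genes are understated by the pseudocount of 1. Rank correlations used 100000 permutations. Library measures used the exact permutation test over 210 assignments. Alternatives were edgeR 4.0.16 and DESeq2 1.42.0 on the recovered reads, covariates, other scalings, pseudocounts, no filter and leaving out each library.

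The members, the 42 gene lists and the tests were chosen with earlier results of these data known. The genes named were Tert and Ppm1d; in each direction the 6 without overlap between classes and with the smallest p (at least 50 normalised reads in a class, no predicted genes); the 6 highest and 6 lowest rho; the leading gene and the gene of smallest p of the main lists; the gene of smallest p of the others; and the neighbours of Tert. Some genes that this rule names are not reported here. Gm12663, Ublcp1, Slc34a1, Lcn2, Havcr1, Cdkn1a, Nphs1, S100a8, the chromosome 11 genes, and genes named for an unadjusted p under 0.05 within a list lie outside this rule and were chosen after their values were seen. Gene positions are those of GENCODE M21 on GRCm38, the same assembly as mm10, which matched 96.2% of genes. The tests were first run on simulated data with known changes.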

Additional observations from a re-analysis of the deposited data

Results flagged for a closer look

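In 6 of 115 groups of 4 to 10 libraries, over 35 genes, the highest or lowest library stood far from the others of its group by Dixon's criterion at the 95% level; chance alone gives about 1 in 20 groups. Among the 4 libraries with lower Tert, GSK2830371 replicate 1 was far above the others for Tob1, at 4657 normalised reads, and far below them for Irf2, at 521.8. Among the 6 libraries with higher Tert, DMSO replicate 4 was far above the others for Kpna4, at 5068, and for Actb, at 77656. Among the 4 controls, replicate 4 was far below the others for Cdkn1a, at 586.2, and replicate 3 far above them for S100a8, at 21.06.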

How the results depend on the processing

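All alternatives were run. The single call between the classes, Gm12663, became 0 calls with treatment as a term, with days on doxycycline as a term, with the replicate block, with all 14 libraries, within DMSO, within GSK2830371 and with log2 Tert as a continuous term, and 2 calls with DESeq2 (Gm12663 and Tnfsf9). Leaving out each library gave 0 to 1 calls. Sex as a term, edgeR, TMM, size factors over the 10 libraries, pseudocounts of 0.5 and 5 and no filter on low counts gave 1 call each. The adjusted p of Gm12663 ran from 2.63e-12 to 0.999 over its alternatives. The rank correlation gave 0 calls under each alternative, and no library changed side of the dividing Tert value under TMM or scaling by total reads.

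Replicate numbers are shared by the DMSO and GSK2830371 groups. The deviations of same-numbered libraries correlated at 0.343, 0.272, -0.0411, 0.0551 and 0.134, not all above 0.1, so the numbers were not taken to pair the mice. These few values, given without a test, cannot exclude pairing, and libraries 1 and 2 correlated best with their own number. The fit with the replicate block called 0 genes, with 424 at an unadjusted p under 0.05, and gave 0.51 for Lcn2 and 0.53 for S100a8.

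Of the alternative values for named genes, 1267 kept direction and side of the threshold, 36 reversed, 14 lost and 1 gained a call; none of the genes that reversed had passed the test. Reversed log2 differences, higher minus lower Tert, were 0.061 for Ppm1d, -1.10 for Mki67, 1.19 for Lcn2 and 2.78 for S100a8 within DMSO; -0.52 for Cdkn1a, -0.36 for Plin2, 0.48 for Slc34a1 and 0.061 for Mrc1 within GSK2830371; -0.18 for Cdkn1a with sex as a term; -0.12 and -0.13 for Cdkn1a and 0.24 and 0.24 for S100a8 with edgeR and DESeq2; and 0.18 for Nphs1, -0.14 for Cdkn1a, 0.24 for S100a8 and 0.086 for Slc34a1 with log2 Tert as a continuous term. The cause was not tested.

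Leaving out 1 library at a time reversed Cdkn1a (-0.25 to 0.90), Lcn2 (-0.62 to 0.16), Mki67 (-0.0063 to 0.97), Nphs1 (-0.49 to 0.23), S100a8 (-0.88 to 0.78) and Slc34a1 (-0.56 to 0.18), and the class differences in disease score (-0.034 to 0.095), reads per library, in units of 1000000 (-0.458 to 0.0017), mitochondrial percent (-0.824 to 0.425) and percent in the 10 most abundant genes (-1.13 to 0.232). Within DMSO the lower class is DMSO replicate 5 alone, which is assumed to vary like the other libraries. The low counts of Gm12663 and Tnfsf9 limit their precision, and 6 against 4 libraries limit all tests.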
